A study of Chlamydomonas reinhardtii with 12 samples.

Results

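The alpha and beta tubulin genes of the unicellular green alga Chlamydomonas reinhardtii were followed in wild-type cells and in vip1-1, a strain deficient in inositol pyrophosphates, in moderate and in high light. They are 4 of the 17693 genes of the deposited table, chosen by their gene IDs: the alpha tubulin genes TUA1 (Cre03.g190950_4532.v6.1) and TUA2 (Cre04.g216850_4532.v6.1), and the beta tubulin genes TUB1 (Cre12.g542250_4532.v6.1) and TUB2 (Cre12.g549550_4532.v6.1). The 4 symbols came with this list of IDs, since the table and the reference gene table name genes by ID alone. All 4 IDs matched a locus tag of the older v5.5 assembly, on chromosome 3 for TUA1, chromosome 4 for TUA2 and chromosome 12 for both beta tubulin genes, which have 165 genes between them in that assembly. Coordinates of that build are not given because the deposited IDs belong to release 6.1 of strain CC-4532.

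Alpha and beta tubulin form the dimer from which microtubules are built, in the spindle and the cytoplasm as well as in the axonemes of the flagella. Chlamydomonas is a classic organism for the study of tubulin expression, because tubulin transcripts rise when the flagella are lost and regrown and also vary over the division cycle. TUA1 and TUA2 encode nearly the same alpha tubulin, and TUB1 and TUB2 encode the same beta tubulin. Reads from the coding region of one copy can therefore match its partner, and how the authors' processing divided such reads is not given in the sources used here. The split between the copies is uncertain for this reason, and the sum of each pair is reported beside it.

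All 12 libraries were made from polyadenylated RNA of cells labelled CC-1690, either wild type or vip1-1, grown in liquid TAP (acetate) medium at 25 ºC. Control cultures received 50 and high light cultures 1500 µmol photons per square metre and second, and each of the 4 groups had 3 biological replicates. The labels give neither the duration of the high light nor the nature of the vip1-1 lesion, and the gene behind vip1-1 was not matched to an ID here, so the strain labels were not checked against it. Levels are FPKM, a fragment count scaled by the authors for transcript length and library size, so that levels can be compared between genes. Changes are differences of log2(FPKM + 1), tested with limma across the 12575 genes that reached an FPKM of 1 in 3 or more libraries, with p-values adjusted by the Benjamini-Hochberg method and a threshold of 0.05. All 4 tubulin genes were among the genes tested.

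The libraries differed in ways that bear on the direction of any change. Their FPKM totals ran from 651369 to 767459. The 100 most abundant genes took 57.2% to 67.2% of the total, less in every high light library than in any control library. In vip1-1 high light, replicate 1 came close to the control libraries, at 64.3% against 60.2% and 59.9% in replicates 2 and 3. That library also had fewer genes at an FPKM of 1 or more (10451, against 11744 and 11246). Its median log2(FPKM + 1) over tested genes was lower, at 2.40 against 2.67 and 2.65. Whether this bears on its tubulin values was not tested. Over all tested genes the median log2 change was 0.39 for high light in the wild type, 0.38 for high light in vip1-1, -0.29 for vip1-1 against wild type in control light and -0.28 in high light. The light and strain changes of the single tubulin genes are therefore also given relative to that median. For the strain by light interaction the median was 0.0011, and the values are given as fitted. In cultures sequenced in bulk, a change in the fraction of cells that express a gene and a change in RNA per cell cannot be told apart.

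All 4 genes were abundant in every library. TUA1 ranked between place 49 and place 134 of all genes, TUA2 between 112 and 163, TUB1 between 118 and 258 and TUB2 between 118 and 216. Together they made up 0.36% ± 0.052 of the FPKM total of wild-type cells in control light and 0.53% ± 0.052 in high light. The corresponding shares in vip1-1 were 0.39% ± 0.030 and 0.66% ± 0.23 (SD, n = 3). TUA1 stood above TUA2 in all 12 libraries, and TUA2 above both beta tubulin genes in 10 of 12.

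TUA1, the more abundant alpha tubulin transcript, was higher in high light in both strains. In the wild type its level was 1199.8, 1231 and 915 FPKM in control replicates 1, 2 and 3, and in high light 1676, 2067 and 2007 FPKM. In vip1-1 it was 1399, 1264 and 1560.1 FPKM in control light and 1614, 2087 and 3419 FPKM in high light. Within each strain every high light library lay above every control library, although vip1-1 replicate 1 in high light exceeded the highest control library by little, and vip1-1 replicate 3 in high light stood far above all others. The order of the group means was wild-type control (1116 ± 174), vip1-1 control (1408 ± 148), wild-type high light (1917 ± 211) and, highest, vip1-1 under high light (2373 ± 936 FPKM, SD, n = 3). Only the last pair of neighbours overlapped, and the wild-type control and vip1-1 control libraries did not, but that difference did not pass the test (adjusted p = 0.294, limma). The TUA1 values carry more than 6 decimals, as do those of 6218 genes of the table but none of the other tubulin genes, and the reason is not given in the sources used here. Whether such a value combines several entries of a gene was not tested. If it does, the TUA1 level, its rank and its ratio to TUA2 would include all of them. The same would hold for the alpha tubulin sum, the TUA2 share of it and its ratio to the beta tubulin sum. The tubulin share of the FPKM total would be affected as well.

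TUA2, the second alpha tubulin gene, did not follow TUA1 in the wild type. Wild-type cells had 773, 795 and 625 FPKM in control light and 520.4, 512 and 612 FPKM in high light. All high light libraries thus lay below all control libraries, by a narrow gap between 612 and 625 FPKM. In vip1-1 it was 788, 767 and 818 FPKM in control light and 588, 1078 and 1164 FPKM in high light. There the high light libraries spread to both sides of the control libraries, with replicate 1 below and replicates 2 and 3 above. The group means ran from wild-type high light (548 ± 55.3) through wild-type control (731 ± 92.6) and vip1-1 control (791 ± 25.7) to vip1-1 high light (943 ± 311 FPKM, SD, n = 3). The last 3 of these groups overlapped with their neighbours, and wild-type high light overlapped vip1-1 high light.

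TUB1, one of the beta tubulin genes, was lowest in vip1-1 control. Wild-type cells had 486, 452 and 377 FPKM in control light and 492, 598 and 598 FPKM in high light. In vip1-1 it stood at 322, 297 and 376 FPKM in control light and at 472, 482 and 653 FPKM in high light. High light and control libraries did not overlap in either strain, although the gap was narrow in the wild type. The means were 332 ± 40.7 in vip1-1 control, 438 ± 55.8 in wild-type control, 536 ± 102 in vip1-1 high light and 562 ± 61.0 FPKM in wild-type high light (SD, n = 3). The 2 control groups did not overlap but lay close, with the highest vip1-1 library just under the lowest wild-type one, while wild-type control overlapped vip1-1 high light and the 2 high light groups overlapped each other.

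TUB2, the other beta tubulin gene, was high in a single group. Wild-type cells had 443, 437 and 331 FPKM in control light and 382, 488 and 468 FPKM in high light. For vip1-1 the values were 404, 438 and 483 FPKM under control conditions, and 618, 659.9 and 991 FPKM in high light. The means of the first 3 groups, 403 ± 63.0, 446 ± 56.2 and 442 ± 39.9 FPKM, lay within each other's spread. Every vip1-1 high light library lay above every library of the other groups (mean 756 ± 204 FPKM, SD, n = 3). Among all tested genes, 54% had no overlap between vip1-1 high light and wild-type control. That share was 47.5% against wild-type high light and 54.9% against vip1-1 control. How many genes had 1 group above all others was not examined.

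**Figure D1:**
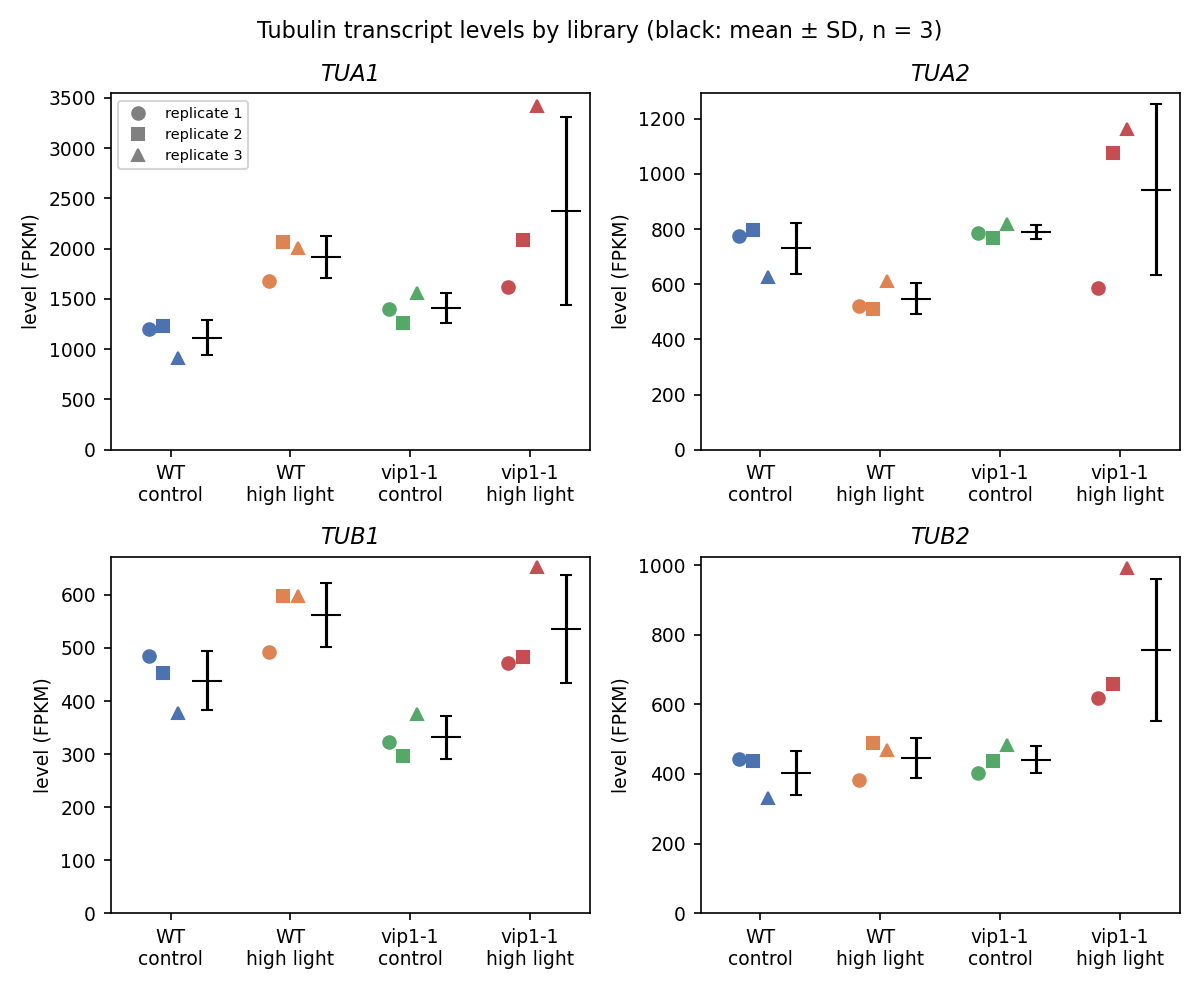
Level (FPKM, linear axis from 0) of each tubulin gene in the 12 libraries, coloured by group, with the symbol giving the replicate and the black bar the mean ± SD of 3 libraries. TUB2 in vip1-1 high light, at 618 to 991 FPKM, stands above all other groups, and vip1-1 high light replicate 3 is the highest library for all 4 genes. How many other genes have 1 group above all others was not examined.

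The effect of high light in the wild type was then tested, and 1 of the 4 tubulin genes passed. TUA1 rose by 0.79 on the log2 scale (SE 0.24, limma adjusted p = 0.0154), a change 0.39 above that of the median gene. TUA2 changed by -0.41 (adjusted p = 0.134), -0.80 when set against the median gene. TUB1 changed by 0.36 (adjusted p = 0.0755) and TUB2 by 0.15 (adjusted p = 0.523), which was -0.03 and -0.24 relative to the median gene. Among all tested genes 58.4% passed this test, 44.7% upward and 13.7% downward. The ranges of 3 tubulin genes did not overlap between light levels, against 66.6% of all tested genes.

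These wild-type changes depended on the scaling. The TUA1 rise kept its direction under each of the 4 scalings tried, but with each library centred on its median it was 0.36 and did not pass (adjusted p = 0.210), and without wild-type control replicate 3 its adjusted p was 0.0650. TUA2 passed as lower after median centring, by -0.84 (adjusted p = 0.00351), and turned to 0.18 under quantile normalization (adjusted p = 0.655). With only the 6 wild-type libraries in the fit the TUA2 change of -0.41 passed (adjusted p = 0.0407).

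In vip1-1, high light raised 3 of the 4 genes. TUB2 rose by 0.75 (SE 0.19, limma adjusted p = 0.0122), TUB1 by 0.68 (SE 0.16, adjusted p = 0.00889) and TUA1 by 0.69 (SE 0.24, adjusted p = 0.0398). Relative to the median gene these were 0.37, 0.30 and 0.31. TUA2 changed by 0.19 (95% interval -0.30 to 0.68, adjusted p = 0.500), -0.18 when set against the median gene. Of all tested genes 41.5% passed this test, 37.4% upward and 4.09% downward. The ranges of 3 tubulin genes did not overlap between light levels, against 54.9% of all tested genes.

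The rise of TUB1 and TUB2 in vip1-1 passed whichever of the 12 libraries was left out, with changes from 0.53 to 0.77 for TUB1 and from 0.54 to 0.88 for TUB2. After median centring none of the 3 rises passed, at 0.25 for TUB1 (adjusted p = 0.346), 0.32 for TUB2 (adjusted p = 0.291) and 0.26 for TUA1 (adjusted p = 0.455). The TUA1 call was also lost without a filter on low values (adjusted p = 0.0572), with scaling to the total outside the 100 most abundant genes (0.64, adjusted p = 0.0571) and in a fit of the 6 vip1-1 libraries alone (adjusted p = 0.0954). It rested on single libraries too: the change was 0.39 without vip1-1 high light replicate 3 (adjusted p = 0.119), and it was lost in 7 of the 12 fits. TUA2 passed as higher, by 0.50, without vip1-1 high light replicate 1 (adjusted p = 0.0129), and its change turned to -0.23 after median centring (adjusted p = 0.398).

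The comparison of the strains in control light asked whether tubulin transcripts differed before the stress, and no tubulin gene passed, against 32.4% of all tested genes (6.39% higher and 26% lower in vip1-1). The differences, vip1-1 minus wild type, were 0.34 for TUA1 (limma adjusted p = 0.294), 0.12 for TUA2 (adjusted p = 0.704), -0.40 for TUB1 (adjusted p = 0.0808) and 0.14 for TUB2 (adjusted p = 0.608). Before adjustment the TUB1 difference was the only one of the 4 under 0.05 in the limma model across all genes. Relative to the median gene the 4 differences were 0.63, 0.41, -0.11 and 0.42. When the fit was restricted to the 6 control libraries TUB1 passed as lower (adjusted p = 0.0344). The ranges of TUA1 and TUB1 did not overlap between the strains, against 63% of all tested genes.

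In high light TUA2 and TUB2 were higher in vip1-1 than in wild type. TUB2 differed by 0.74 (SE 0.19, limma adjusted p = 0.00928) and TUA2 by 0.73 (SE 0.22, adjusted p = 0.0207), or by 1.02 and 1.00 relative to the median gene. TUA1 differed by 0.24 (95% interval -0.28 to 0.77, limma adjusted p = 0.429) and TUB1 by -0.08 (95% interval -0.44 to 0.28, adjusted p = 0.710). Relative to the median gene the TUA1 and TUB1 differences were 0.52 and 0.20. Of all tested genes 46.4% passed, 12.1% as higher and 34.4% as lower in vip1-1. The TUB2 ranges did not overlap between the strains, nor did those of 47.5% of all tested genes. Those of TUA2 did overlap, at 512 to 612 FPKM in the wild type and 588 to 1164 FPKM in vip1-1. The ranges of TUA1 and TUB1 overlapped as well.

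The TUB2 difference passed whichever of the 12 libraries was left out, with values from 0.53 to 0.87, while that of TUA2 did not pass without wild-type high light replicate 1 (0.69, adjusted p = 0.0627), without vip1-1 high light replicate 2 (0.60, adjusted p = 0.0720) or without vip1-1 high light replicate 3 (0.54, adjusted p = 0.0733). With a weight for each library TUB2 did not pass (0.58, adjusted p = 0.0928) and TUA2 did. When the fit was restricted to the 6 high light libraries neither passed, at adjusted p = 0.0508 for TUB2 and 0.0963 for TUA2. Under quantile normalization the difference was 0.42 for TUB2 (adjusted p = 0.215) and 0.20 for TUA2 (adjusted p = 0.654).

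Whether the strains differed in their response to high light was tested by the interaction, the light change in vip1-1 minus that in wild type. No tubulin gene passed, against 8.71% of all tested genes (3.82% more positive and 4.89% more negative in vip1-1). The interaction was 0.60 for TUA2 (95% interval -0.09 to 1.30, limma adjusted p = 0.256), 0.60 for TUB2 (0.00056 to 1.19, adjusted p = 0.196), 0.32 for TUB1 (-0.18 to 0.82, adjusted p = 0.415) and -0.10 for TUA1 (-0.84 to 0.64, adjusted p = 0.880). Before adjustment TUB2 was the only one of the 4 under 0.05 in the limma model across all genes. The intervals are wide enough to hold both no difference and a difference as large as the light changes themselves, apart from that of TUB2, whose lower bound lies at nearly 0. Without vip1-1 high light replicate 1 the interaction of TUA2 was 0.91 and passed (adjusted p = 0.0141).

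**Figure D2:**
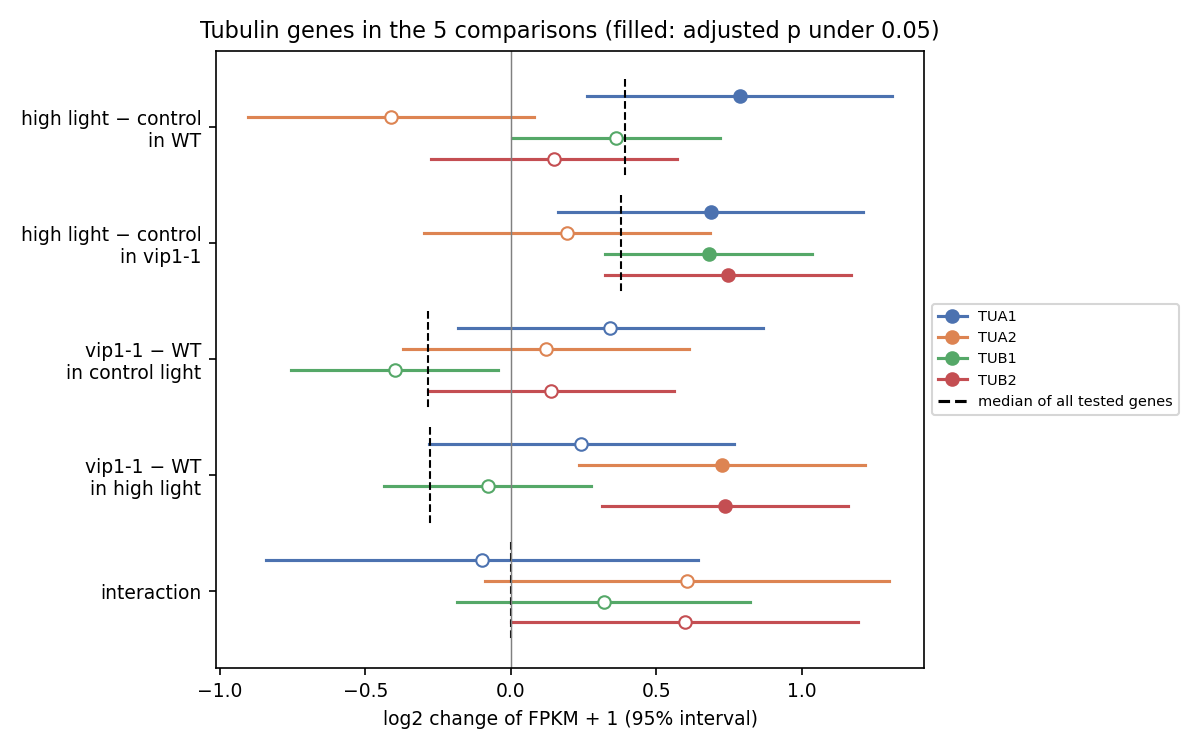
Log2 change of FPKM + 1 of the 4 tubulin genes, coloured by gene, in the 5 comparisons, with 95% intervals from limma; filled points have an adjusted p under 0.05 and the dashed line marks the median of all 12575 tested genes. TUA1 is filled for high light in both strains, TUB1 and TUB2 for high light in vip1-1, and TUA2 and TUB2 for vip1-1 against wild type in high light.

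**Figure D3:**
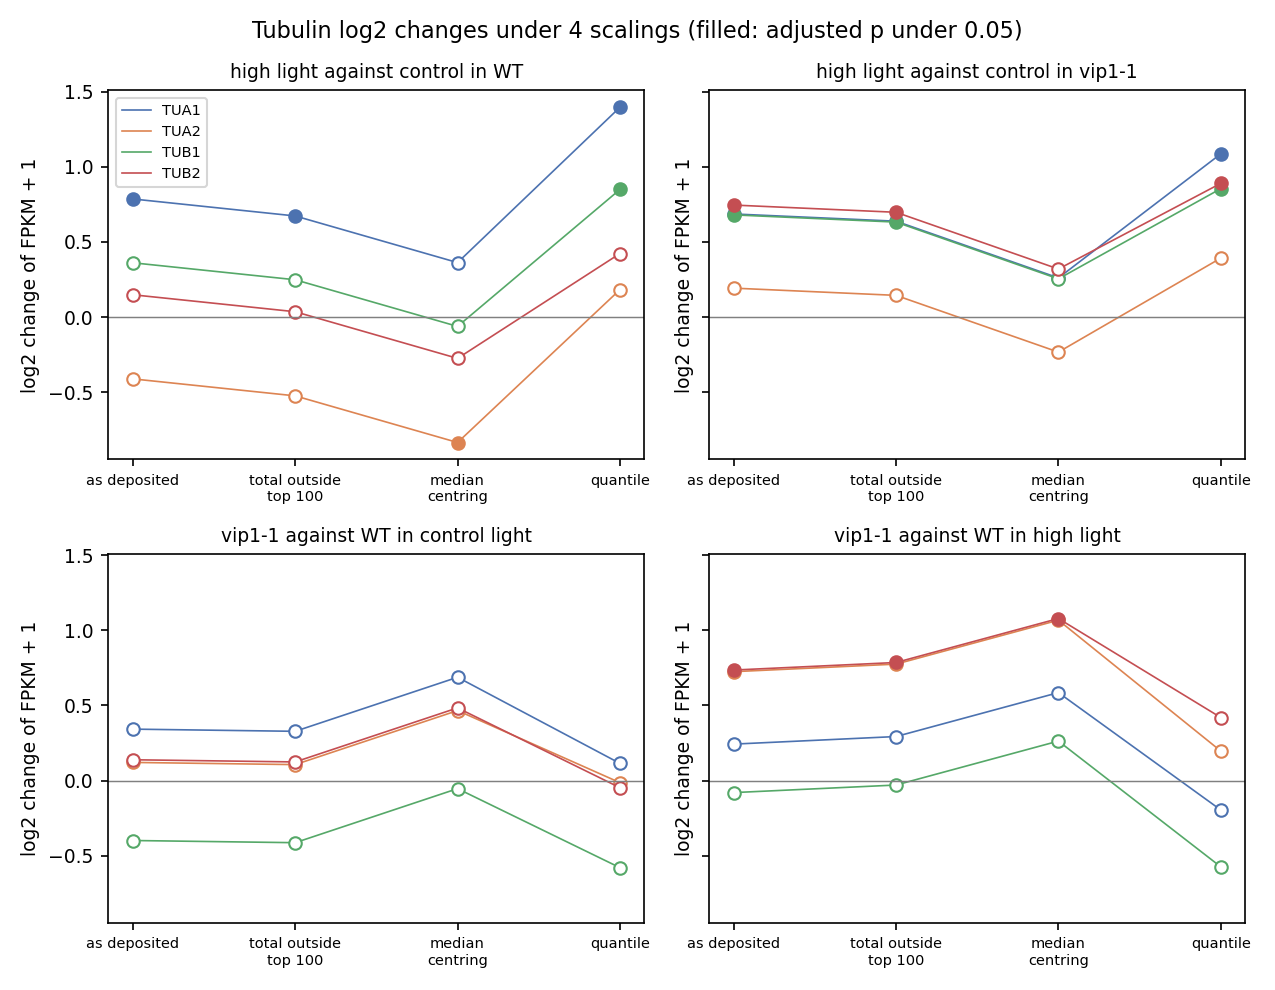
Log2 change of FPKM + 1 of each tubulin gene, coloured by gene, under 4 scalings of the libraries (as deposited, scaled to the FPKM total outside the 100 most abundant genes, centred on the median, quantile normalized), with filled points for an adjusted p under 0.05. TUA2 in the wild type runs from -0.84 after median centring to 0.18 under quantile normalization; scaling to a total and median centring shift abundant genes of a library alike by construction, and quantile normalization does not.

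Ratios between tubulin genes within a library are unaffected by any scaling that multiplies a whole library by 1 factor (quantile normalization is not of that kind), and the ratio of the beta tubulin genes lay on opposite sides of 1 in the strains. The ratio of TUB2 to TUB1 was 0.91, 0.97 and 0.88 for wild-type cells in control light and 0.78, 0.82 and 0.78 in high light. In vip1-1 it was 1.25, 1.48 and 1.28 in control light and 1.31, 1.37 and 1.52 in high light. TUB1 thus exceeded TUB2 in all 6 wild-type libraries and TUB2 exceeded TUB1 in all 6 vip1-1 libraries, with no overlap between 0.78 to 0.97 and 1.25 to 1.52. As a share of the beta tubulin sum, TUB2 took 47.9% ± 1.21 (control) and 44.2% ± 0.65 (high light) in the wild type, and 57.1% ± 2.16 and 58.2% ± 1.82 in vip1-1 (SD, n = 3). Ratios are given as a description without a test, and whether reads shared by the copies, or sequence differences between the strains, had a part in them was not tested. How often ratios of other gene pairs separate strains or light levels was not examined, for this ratio or those below. For single genes, ranges did not overlap between the strains in 63% of all tested genes in control light and 47.5% in high light.

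The balance of the alpha tubulin genes moved with light. The ratio of TUA1 to TUA2 was 1.55, 1.55 and 1.46 for wild-type cells in control light and 3.22, 4.04 and 3.28 in high light. In vip1-1 it was 1.78, 1.65 and 1.91 in control light and 2.74, 1.94 and 2.94 in high light. High light libraries lay above control libraries in both strains, by a wide gap in the wild type and a very narrow one in vip1-1, where replicate 2 in high light was close to the highest control library. The wild-type high light ratios all exceeded those of vip1-1 in high light. TUA2 accordingly made up 39.7% ± 0.79 (control) and 22.3% ± 2.13 (high light) of the alpha tubulin sum in the wild type, against 36.1% ± 1.68 and 28.7% ± 4.67 in vip1-1 (SD, n = 3).

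**Figure D4:**
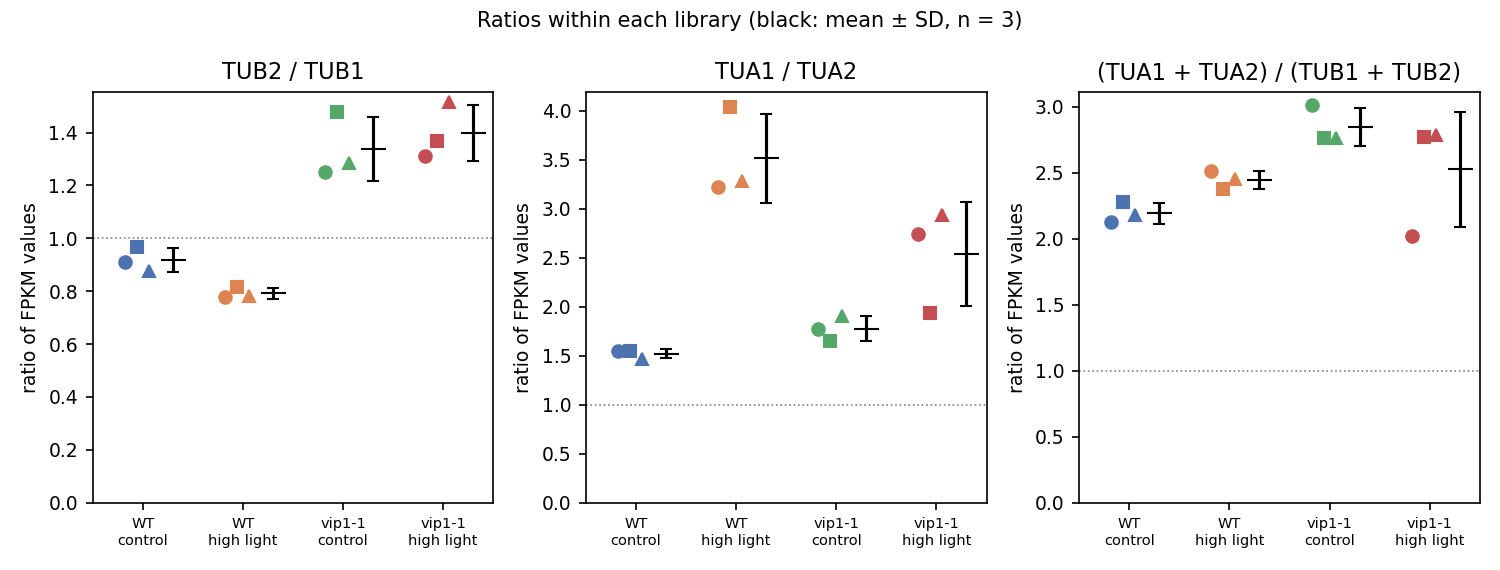
Ratios of FPKM values within each of the 12 libraries, coloured by group, with the symbol giving the replicate as in the plot of levels and the black bar the mean ± SD of 3 libraries; the dotted line marks a ratio of 1. The ratio of TUB2 to TUB1 lies under 1 in the wild type (0.78 to 0.97) and above 1 in vip1-1 (1.25 to 1.52), and the ratio of TUA1 to TUA2 is highest in wild-type high light (3.22 to 4.04).

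The sums of each pair, which depend less directly on the split between the copies but can still be affected by transcript length and by dropped or doubly counted shared reads, gave fewer calls. The alpha tubulin sum was 1847 ± 267 FPKM (control) and 2465 ± 233 FPKM (high light) in the wild type, and 2199 ± 174 and 3317 ± 1197 FPKM in vip1-1 (SD, n = 3). The beta tubulin sum was 842 ± 118, 1008 ± 117, 773 ± 74.8 and 1292 ± 306 FPKM in the same order of groups. With each pair entered as a single feature, the beta tubulin sum rose in vip1-1 in high light, by 0.72 (SE 0.17, limma adjusted p = 0.00963), or 0.34 above the median gene. No other comparison of a sum passed. The alpha tubulin sum changed by 0.42 in the wild type (limma adjusted p = 0.127) and 0.53 in vip1-1 (adjusted p = 0.0770). The strain differences in high light were 0.37 for alpha (limma adjusted p = 0.201) and 0.34 for beta (adjusted p = 0.134). Relative to the median gene these light changes were 0.03 and 0.15, and the strain differences 0.65 and 0.62. The interaction was 0.11 for the alpha sum (adjusted p = 0.861) and 0.46 for the beta sum (adjusted p = 0.275). The calls of TUA1 in both strains and of TUA2 and TUB2 between the strains thus held for single copies and not for the sums.

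The ratio of the alpha to the beta tubulin sum ran from 2.02 to 3.01. In the wild type it was 2.13, 2.28 and 2.18 under control conditions and 2.51, 2.38 and 2.46 in high light. For vip1-1 the values were 3.01, 2.77 and 2.77, and in high light 2.02, 2.77 and 2.79. All vip1-1 control libraries lay above all wild-type libraries, while vip1-1 high light replicate 1 had the lowest ratio of the 12.

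Within a group, the 4 genes mostly deviated together from replicate to replicate. Relative to its group mean on the log2 scale, wild-type control replicate 3 was low for all 4 genes, by -0.27, -0.22, -0.21 and -0.27 for TUA1, TUA2, TUB1 and TUB2. In vip1-1 high light, replicate 3 was high for all 4, by 0.60, 0.36, 0.30 and 0.42, and replicate 1 was low for all 4, by -0.48, -0.62, -0.17 and -0.26. In replicate 2 of that group TUA2 was at 0.25, against -0.11, -0.14 and -0.16 for TUA1, TUB1 and TUB2. In wild-type high light replicate 2 it was at -0.09, against 0.12, 0.09 and 0.14. Across the 12 libraries, Pearson's r of these deviations was 0.91 between TUA1 and TUB1, 0.94 between TUA1 and TUB2, 0.94 between TUB1 and TUB2, 0.80 between TUA1 and TUA2, 0.59 between TUA2 and TUB1 and 0.66 between TUA2 and TUB2. The points of each correlation share their libraries and their scaling, and reads shared by the copies may enter as well, so r is given as a description. In vip1-1 high light the coefficient of variation was 39.4% for TUA1, 32.9% for TUA2, 19.0% for TUB1 and 27.0% for TUB2, beside a median of 23.8% over all tested genes in that group. In wild-type high light it was 10.1% to 12.6% for the 4 genes, beside a median of 21.5%.

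With group differences included, Pearson's r of log2(FPKM + 1) over the 12 libraries was highest between TUA1 and TUB2, at 0.84, followed by 0.71 between TUA1 and TUB1, 0.62 between TUA2 and TUB2 and 0.55 between TUB1 and TUB2. It was 0.34 between the 2 alpha tubulin genes and -0.03 between TUA2 and TUB1. Among the other tested genes, the one most like the mean of the 4 standardized tubulin profiles was Cre02.g142126_4532.v6.1, with r of 0.94 over 12 libraries and mean levels of 33.0 (control) and 40.0 FPKM (high light) in the wild type and 31.9 and 52.6 FPKM in vip1-1. The second was Cre14.g631200_4532.v6.1, with r of 0.93, at 4.59, 6.25, 5.32 and 8.70 FPKM in the same order. Of the 5 genes with the highest r, 3 were also among the first 5 after median centring and 1 by Spearman's rho, so the list itself was not stable. Cre02.g142126_4532.v6.1 fell to place 298 by Spearman's rho (0.76) and place 4 after median centring, while Cre14.g631200_4532.v6.1 took places 2 and 1. The 3 genes most like each single tubulin gene reached r of 0.94 to 0.96 for TUA1, 0.93 to 0.94 for TUA2, 0.96 to 0.97 for TUB1 and 0.91 to 0.93 for TUB2. By Spearman's rho 1 of the 3 was kept for TUA1 and for TUB1, and 0 for TUA2 and for TUB2. All these r are the highest picked from the whole set of other tested genes, so high values arise in part from the selection. The lists of other microtubule and flagellar genes drawn up for comparison could not be used, because no annotation used here gives symbols or products for the IDs.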

How the data were processed

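One FPKM value per gene and library was deposited by the authors, per the file headers and name. The submitters' processing notes name HISAT2 and StringTie; their versions, the filters and the sequencing depth are not given in the sources used here. Low values (FPKM up to 0.15) showed no steps of whole reads: in 66 pairs of libraries the commonest ratio held 0.52% to 1.75% of the genes. No count model or counting interval was therefore used, and precision rests on 3 replicates per group. Columns were matched to samples by library name. No 2 libraries held identical values, and r between replicates was 0.931 to 0.988.

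Values were transformed to log2(FPKM + 1), with a pseudocount of 1, and genes reaching an FPKM of 1 in 3 or more libraries were fitted with limma 3.58.1 in R 4.3.3 (4 group means, empirical Bayes with a variance trend). The 5 contrasts were two-sided and adjusted over all 12575 genes, with a threshold of 0.05. The procedure was tested on simulated data. The tubulin genes and the lists were chosen with earlier results of these data known. Like genes were ranked by Pearson's r with the mean of the standardized tubulin profiles and with each tubulin gene, the first 5 and the first 3 being listed; the first 2 of the former are named. Other pseudocounts, low-value filters, scalings and sets of libraries, no variance trend, summed copies, a block for replicate number and the omission of single libraries served as alternatives; library weights were added after the data were seen. Plots were made in Python 3.11.15 (matplotlib 3.10.9).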

Additional observations from a re-analysis of the deposited data

How the results depend on the processing

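The number of tubulin genes past the threshold for high light in the wild type, 1 as reported, was 2 under quantile normalization and with only the 6 libraries compared, 0 of 2 with the copies summed, and 0 to 2 when single libraries were left out. After median centring that number was still 1, but the gene was TUA2, as lower, and no longer TUA1. For high light in vip1-1, 3 as reported, it was 0 after median centring, 4 with library weights, 2 without a filter, with scaling outside the 100 most abundant genes, with only the 6 libraries compared and with a replicate block, 1 of 2 with the copies summed, and 2 to 4 when single libraries were left out. For the strains in control light, 0 as reported, it was 1 with only the 6 libraries compared and with library weights, and 0 to 1 when single libraries were left out. For the strains in high light, 2 as reported, it was 0 under quantile normalization, with only the 6 libraries compared and with the copies summed, 1 with library weights (TUA2, not TUB2), and 1 to 2 when single libraries were left out. The interaction, 0 as reported, gave 0 to 1 when single libraries were left out. The estimation of the library weights stopped before it reached its convergence tolerance. The cause of these shifts was not tested.

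Some changes turned sign. In the wild type, median centring gave -0.062 for TUB1 and -0.28 for TUB2 in high light, and quantile normalization gave 0.18 for TUA2. In vip1-1, median centring gave -0.23 for TUA2. Between the strains in control light, quantile normalization gave -0.014 for TUA2 and -0.048 for TUB2, and library weights gave -0.0086 for TUB2. In high light, quantile normalization gave -0.20 for TUA1 and median centring 0.26 for TUB1. There TUA1 was -0.056 without vip1-1 high light replicate 3 and TUB1 0.0033 without vip1-1 high light replicate 1. The interaction of TUA1 ran from -0.40 to 0.14 when single libraries were left out, being 0.036 without wild-type control replicate 3 and positive too, at 0.14, when vip1-1 high light replicate 1 was dropped. None of these changed-sign values passed the threshold.

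Replicate numbers did not pair the libraries: of 18 same-numbered pairs from different groups, 4 had a correlation of deviations above 0.1 (from -0.49 to 0.48). With a replicate block the rise of TUA1 in vip1-1 had an adjusted p of 0.0506 (limma), and no other tubulin call changed. Sequencing depth is unknown, so what it limits could not be stated.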
